A study of Drosophila melanogaster with 8 samples.

Results

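The 28 genes described here lie in, or at the edge of, the pericentric heterochromatin of Drosophila melanogaster, the compact chromatin that flanks the centromeres. They were taken as a fixed list of FlyBase symbols, with ribosomal protein genes left out. The rule itself names no measured value, but the list was chosen with earlier results of these data known. All 28 were found by gene ID among the 13776 genes of the RNA-seq tables. RNA-seq was made from whole ovaries of females aged 0 to 4 days, about 100 ovaries per library. The control group comprised 2 libraries from the progeny of tj-Gal4 crossed to the VDRC line #60000, and the HP1a knockdown group comprised 2 libraries from the progeny of tj-Gal4 crossed to an HP1a RNAi line. Both groups thus carry the tj-Gal4 driver, which acts in the somatic cells of the ovary, while germline RNA was measured in the same libraries. The line crossed to the driver differs between the groups along with the RNAi construct, so effects of the line and of the knockdown cannot be told apart. In whole-ovary RNA, fewer cells of a type and less RNA per cell cannot be told apart either.

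HP1a is a chromatin protein that binds methylated histone H3 and is concentrated in pericentric heterochromatin. Most genes placed next to such chromatin are silenced, whereas genes whose native place is there, with light (lt) and rolled (rl) as the classical examples, are known to be transcribed inside it, and in Drosophila these were found to need the heterochromatic setting for full expression. The 28 genes cover chromatin and RNA processing factors, signalling and adhesion proteins, trafficking and transport proteins, a steroid enzyme and 9 further genes with CG numbers. In the gene order of the Release 6 reference table, each of them stands at most 69 genes from the centromere-proximal end of its chromosome arm. That order places 6 on 2L, 12 on 2R, 6 on 3L, 2 on 3R and 2 on X. The deposited list of HP1 domains from DamID holds 4467 domains under 5 chromosome names, 2L, 2R, 3L, 3R and X. It has 0 entries on chromosome 4 and 0 on the heterochromatin scaffolds that dm3 keeps apart, so the 28 genes were not related to those domains here.

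Total deposited counts were 20633184 for control 1, 21862077 for control 2, 18671653 for knockdown 1 and 38330979 for knockdown 2. RNA of HP1a itself stood at 253 and 229 CPM (counts per 1000000, after scaling of the libraries) in the controls and at 224 and 236 CPM in the knockdown libraries. Its log2 fold change was -0.06 (SE 0.11, edgeR adjusted p = 0.677), so a fall of the targeted gene was not detected in whole-ovary RNA, and the name knockdown follows the labels only. Its sign turned with library size alone (0.17, adjusted p = 0.244), with scaling to germline genes (0.09, 0.620) and without control 1 (0.02, 0.893), and on log2(TPM + 1) it passed as higher (0.46, limma adjusted p = 0.0123), under a median of all genes of 0.50. The tissue label was checked on ovary markers. All 8 germline and all 8 follicle cell markers found in the tables had counts in every library. The summed level of the germline markers was 4690 and 3937 CPM in the controls and 3280 and 3405 CPM in the knockdown libraries, with 2 markers higher and 2 lower. That of the follicle cell markers was 955 and 644 CPM against 164 and 181 CPM, with 0 higher and 7 lower. The 13 eggshell markers of late egg chambers summed to 9267 and 32953 CPM in the controls and to 1153 and 8358 CPM in the knockdown libraries. Of these 13, 0 were called higher and 1 lower, and the groups overlapped in 9. The part of these shifts in the results on the 28 genes was not tested.

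Most of the 28 genes were transcribed in the ovary, and many had more RNA in the knockdown libraries. Of the 28, 26 had enough counts to be tested, of which 13 were higher, 1 was lower and 12 did not pass (edgeR quasi-likelihood test, adjusted p under 0.05). Over all 8798 tested genes 27.9% passed, 11.8% in the higher and 16.1% in the lower direction. The rises were moderate, from 1.41-fold to 2.09-fold, and the median log2 fold change of the 26 was 0.50 against 0.02 for all tested genes. With edgeR 0 of 26 passed without knockdown 1 or without knockdown 2, when the lone library is taken to vary like the controls and 2.40% and 3.64% of all tested genes passed. In these fits the median log2 fold change of the 26 was 0.51 and 0.50, and the values of all 13 genes called higher stayed positive. The split also moved with the scaling. With library size alone as the scale, 15 were higher and 0 lower. Of all 8798 tested genes 2576 were then higher, against 1040 as scaled here (71.2% of all calls, against 42.4%). With scaling to 18 germline genes 13 were higher and 0 lower, beside 2148 higher of all tested genes (66.4% of all calls). The direction of that last scale depends on the genes chosen for it, since 9 of the 18 had a log2 fold change above 0 and 9 below as scaled here, from -1.13 for aub to 0.67 for gcl.

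**Figure D1:**
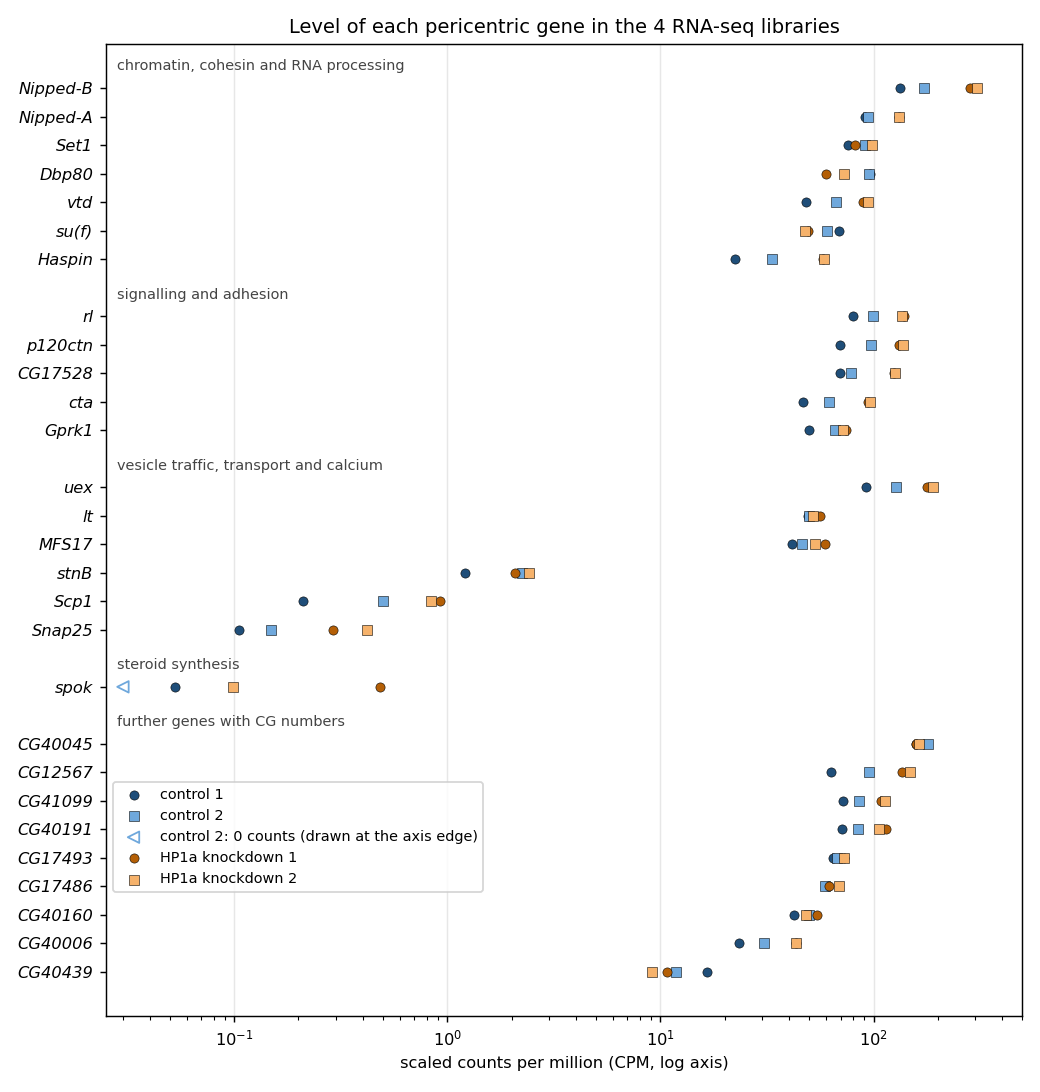
Scaled counts per 1000000 (CPM, log axis) of each of the 28 pericentric genes in the 2 control libraries (blue) and the 2 HP1a knockdown libraries (orange), grouped by role. In 24 genes the mean of each group lies above 9 CPM, and 4 genes (stnB, Scp1, Snap25 and spok) lie under 3 CPM in every library.

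Levels between genes were compared per transcript length, as the deposited TPM (transcripts per 1000000). In each of the 4 libraries 24 of the 28 genes lay above the median of all genes. The median of the 28 was 22.1 and 28.6 TPM in the controls and 54.1 and 54.7 TPM in the knockdown libraries. For the 26 tested members the median was 23.8 and 29.2 TPM in the controls and 57.8 and 59.8 TPM in the knockdown libraries. Among all tested genes the median TPM was 21.9 and 25.5 in the controls, close to that of the members. It also went up, to 39.3 and 38.8 in the knockdown libraries, so a rise in TPM between the groups includes a shift of all genes. The highest TPM of the list belonged to CG40045, which carries the synonym Ube2G1 of a ubiquitin-conjugating enzyme, with 297 and 351 TPM in the controls and 447 and 443 TPM in the knockdown libraries. The genes spok, Snap25 and stnB were under 0.5 TPM in every library.

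Of 7 genes of chromatin, cohesin and RNA processing, 4 rose, 1 fell and 2 did not pass. Nipped-B, which loads the cohesin ring onto chromosomes, stood at 132 and 172 CPM in the controls and at 285 and 305 CPM in the knockdown libraries. The knockdown libraries were both above the controls, as for 39.3% of all tested genes, and the gene rose 1.94-fold (log2 fold change 0.95, SE 0.16, edgeR adjusted p = 0.0241). The cohesin ring subunit gene vtd, the fly Rad21, stood at 48.2 and 66.9 CPM in the controls and at 89.0 and 94.6 CPM in the knockdown libraries. It rose by a log2 fold change of 0.67 (SE 0.18, edgeR adjusted p = 0.0493), close to the threshold. The groups did not overlap, which held for 77.0% of all tested genes in either direction and so sets few genes apart. Haspin, a kinase that phosphorylates histone H3 in mitosis, had 22.4 and 33.4 CPM in the controls and 58.2 CPM in both knockdown libraries. Its rise of 2.09-fold (log2 fold change 1.06, SE 0.22, edgeR adjusted p = 0.0308) was the largest among the 13 genes called.

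Nipped-A, the fly counterpart of the transcription cofactor TRRAP found in histone acetyltransferase complexes, had 90.8 and 94.6 CPM in the controls. Both knockdown libraries were at 132 CPM, a rise of 1.43-fold (log2 fold change 0.51, SE 0.10, edgeR adjusted p = 0.0304). Set1, a histone methyltransferase of active promoters, had 76.2 and 91.4 CPM in the controls and 82.2 and 98.4 CPM in the knockdown libraries. Its groups overlapped and its log2 fold change was 0.11 (SE 0.15, edgeR adjusted p = 0.608). Dbp80, a DEAD-box RNA helicase related to the mRNA export factor DDX19, was at 96.2 and 95.1 CPM in the controls and at 60.0 and 72.3 CPM in the knockdown libraries. It fell 1.44-fold (log2 fold change -0.53, SE 0.14, edgeR adjusted p = 0.0442). That call was made under 6 of 14 alternatives. It was lost without either knockdown library, with library size alone (log2 fold change -0.30, adjusted p = 0.110), with germline scaling (-0.38, 0.0676), without a count filter (-0.49, 0.0673), without control 1 (-0.52, 0.0553) and on TPM, where the value was -0.01 (limma adjusted p = 0.962). For su(f), a subunit of the factor that cleaves mRNA at its end, the values were 68.6 and 60.3 CPM in the controls and 49.4 and 47.8 CPM in the knockdown libraries. The groups did not overlap, and the log2 fold change of -0.41 (SE 0.13) did not pass (edgeR adjusted p = 0.0671); on TPM it was 0.14, under a median of all genes of 0.50.

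Of 5 signalling and adhesion genes, 4 rose, 0 fell and 1 did not pass. The MAP kinase gene rl, the fly ERK of the Ras pathway, stood at 80.2 and 99.4 CPM in the controls and at 138 and 136 CPM in the knockdown libraries. It rose 1.53-fold (log2 fold change 0.61, SE 0.14, edgeR adjusted p = 0.0371). The gene cta, a G protein alpha subunit that relays the folding signal of fog in gastrulation, went from 46.6 and 61.5 CPM to 94.5 and 95.8 CPM. This was a rise of 1.76-fold (log2 fold change 0.82, SE 0.16, edgeR adjusted p = 0.0301). The ligand gene fog, which lies near the X centromere, was at 124 and 126 CPM in the controls and at 129 and 137 CPM in the knockdown libraries (log2 fold change 0.09, edgeR adjusted p = 0.528).

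CG17528, a protein kinase gene with the synonym zyg8, had 70.0 and 78.5 CPM in the controls and 125 and 126 CPM in the knockdown libraries. Its adjusted p of 0.0233 (edgeR; log2 fold change 0.76, SE 0.12) was the smallest on the list. The cadherin-binding catenin gene p120ctn stood at 69.6 and 97.4 CPM against 132 and 138 CPM and rose 1.61-fold (log2 fold change 0.69, SE 0.18, edgeR adjusted p = 0.0473). Gprk1, a kinase of G protein-coupled receptors, had 49.8 and 65.9 CPM in the controls and 74.2 and 71.8 CPM in the knockdown libraries. Its groups did not overlap, while the log2 fold change of 0.34 (SE 0.17) did not pass (edgeR adjusted p = 0.171).

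Among genes of vesicle traffic, transport and calcium, 1 of the 5 tested rose and 0 fell. That gene was uex, of the CNNM family of magnesium transporters, at 92.0 and 127 CPM in the controls and 178 and 190 CPM in the knockdown libraries (1.68-fold, log2 fold change 0.75, SE 0.18, edgeR adjusted p = 0.0399). The classical heterochromatic gene lt, which encodes the Vps41 subunit of the HOPS tethering complex of lysosomes, was at 49.4 and 49.7 CPM in the controls and at 56.3 and 51.8 CPM in the knockdown libraries. No change was called for lt (log2 fold change 0.12, SE 0.12, edgeR adjusted p = 0.466). MFS17, of the major facilitator family of transporters, had 41.5 and 46.3 CPM against 59.3 and 53.0 CPM, with a log2 fold change of 0.35 (SE 0.14, edgeR adjusted p = 0.103). The knockdown libraries lay above the controls for both lt and MFS17, as they did for 39.3% of all tested genes.

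The members Snap25, stnB, Scp1 and spok, known from neurons, muscle and the larval steroid gland, were near the detection limit. The synaptic fusion protein gene Snap25 had 2 and 3 control counts and 6 and 17 knockdown counts, too few for a test. The ratio of its summed, scaled counts was 2.93, with a 95% interval from 1.09 to 9.88 that covers counting error only. The endocytosis gene stnB, whose dicistronic mRNA also encodes stnA, had 23 and 45 counts against 43 and 98, and its groups overlapped at 1.21 and 2.23 CPM against 2.08 and 2.41 CPM (log2 fold change 0.38, SE 0.47, edgeR adjusted p = 0.552). The 8 neuronal markers in the tables summed to 181 and 160 CPM in the controls and to 118 and 119 CPM in the knockdown libraries, with 0 higher and 1 lower of 5 tested. These markers differed widely in level. Syx1A, the 1 called lower, stood at 146 and 131 CPM in the controls and 88.6 and 87.3 CPM in the knockdown libraries. Syt1 had 16.8 and 17.4 CPM against 19.8 and 24.4 CPM, and elav 13.4 and 9.43 CPM against 7.99 and 6.06 CPM. VGlut had 0 counts in every library but knockdown 2, where it had 1, and ChAT had 0 in control 2.

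Scp1, a calcium-binding protein of muscle sarcoplasm, had 4 and 10 control counts and 19 and 34 knockdown counts. At 0.210 and 0.496 CPM against 0.920 and 0.834 CPM the groups did not overlap, and the log2 fold change of 1.29 (SE 0.61) did not pass (edgeR adjusted p = 0.155). Scp1 reached the count filter through the knockdown libraries alone. The 7 muscle markers in the tables, none of them at 0, summed to 1854 and 778 CPM in the controls and to 816 and 682 CPM in the knockdown libraries, with 0 higher and 1 lower. The ecdysteroid gene spok, a cytochrome P450 that acts in the larval prothoracic gland, had 1 and 0 control counts and 10 and 4 knockdown counts. The ratio of the summed, scaled counts was 8.93 (95% counting interval 1.36 to 377), and the gene was not tested. Of 5 markers of steroid-producing cells in the tables, none at 0, 0 were higher and 4 lower, and their sum was 51.7 and 37.1 CPM in the controls and 4.94 and 9.45 CPM in the knockdown libraries.

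Of the 9 further genes with CG numbers, which leave out the kinase gene CG17528 above, 4 rose, 0 fell and 5 did not pass. CG12567 had 63.2 and 95.3 CPM in the controls and 136 and 148 CPM in the knockdown libraries, a rise of 1.79-fold (log2 fold change 0.84, SE 0.21, edgeR adjusted p = 0.0441). CG40006 went from 23.5 and 30.5 CPM to 43.3 and 43.2 CPM (1.60-fold, adjusted p = 0.0434). CG41099, listed with the synonym Rabankyrin, went from 72.3 and 85.2 CPM to 109 and 113 CPM (1.41-fold, adjusted p = 0.0455). CG40191 went from 71.3 and 84.1 CPM to 115 and 106 CPM (1.42-fold, adjusted p = 0.0461). The adjusted p-values of these 4 lay between 0.0434 and 0.0461, and in 2 of them the call was lost under 1 further alternative each, for CG41099 without a count filter (edgeR adjusted p = 0.0512) and for CG40191 with upper quartile scaling (0.0505).

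The other 5 did not pass. CG40045 was at 158 and 181 CPM in the controls and at 159 and 163 CPM in the knockdown libraries. Its log2 fold change of -0.07 (SE 0.12, edgeR adjusted p = 0.646) changed sign with library size alone (0.16), with germline scaling (0.09) and without control 2 (0.07). CG17486 (0.12), CG17493 (0.14) and CG40160 (0.15) had small positive log2 fold changes with adjusted p from 0.367 to 0.476. CG40160, with the serine protease homolog synonym cSPH242, overlapped between groups at 42.3 and 50.0 CPM against 54.3 and 48.0 CPM. CG40439, at 16.5 and 11.9 CPM in the controls and 10.7 and 9.08 CPM in the knockdown libraries, had a log2 fold change of -0.52 (SE 0.25, edgeR adjusted p = 0.167).

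Along the arms, the called genes were unevenly spread among the members, which is given as a description without a test. On 2R, 8 of 12 members rose and 0 fell, with a median log2 fold change of 0.65. On 2L, 3 of 6 rose (CG40006, cta and CG12567), while lt, which stands between CG40439 and cta, did not pass. On 3L, 1 of 5 tested rose (vtd) and 1 fell (Dbp80), with 4 genes between them in the reference order, and with a median of 0.11. The single tested member on 3R, CG41099, rose, and neither stnB nor su(f) on X passed. Neighbours did not always share a call: p120ctn (0.69, called higher) and CG17486 (0.12, not past the threshold) have 0 genes between them in that order. The genes uex (0.75) and Haspin (1.06), with 1 gene between them, were both called higher.

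**Figure D2:**
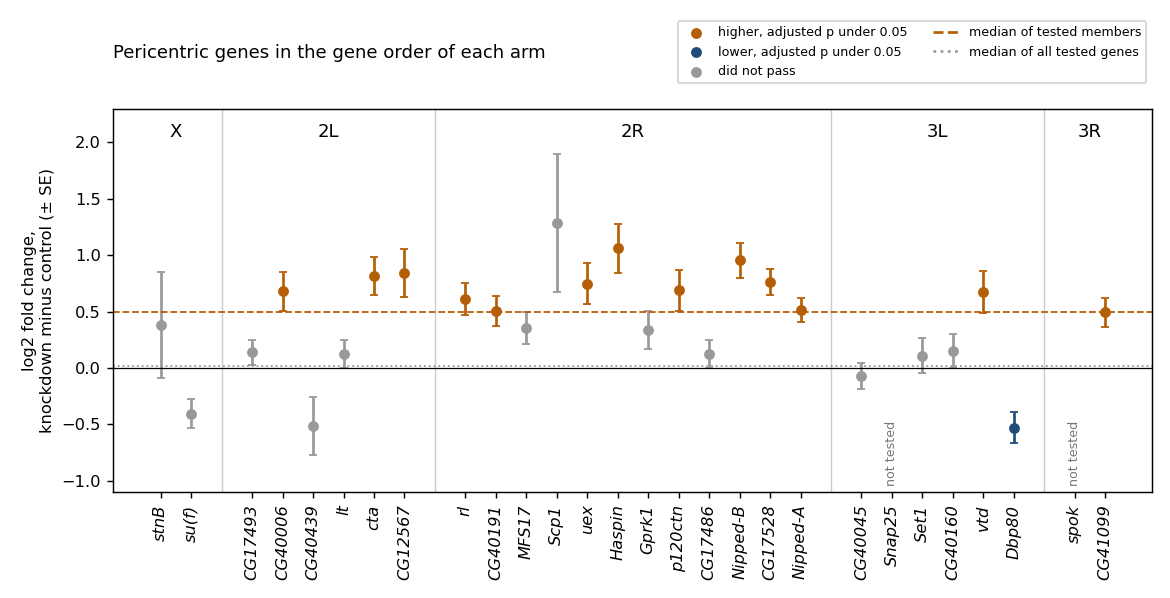
Log2 fold change, knockdown minus control, with its SE for each tested pericentric gene, placed in the gene order of each chromosome arm; orange marks genes called higher, blue the gene called lower, grey those that did not pass. The dashed line is the median of the 26 tested members (0.50), the dotted line that of all tested genes (0.02), and 8 of 12 members on 2R are orange.

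Other genes near the centromeres were read in the same fit. Of 19 further genes listed as pericentric, 12 were in the tables. Of these 12, 2 rose, 3 fell and 7 did not pass, beside 11.8% higher and 16.1% lower of all tested genes. The median log2 fold change of the 12 was -0.02. AGO3, an Argonaute protein of the piRNA pathway, was higher by 1.77-fold (60.5 and 66.1 CPM against 120 and 104 CPM, edgeR adjusted p = 0.0239). The genes that fell were RpL15 (2.12-fold, edgeR adjusted p = 0.0233), RpL38 (1.71-fold, 0.0294) and RpL5 (1.81-fold, 0.0294), which encode ribosomal proteins, a class left out of the 28. These 3 are counted in the 12 and in their median, so the 12 and the 28 are not lists of the same make. The remaining rise was IntS3 of the Integrator complex (1.40-fold, edgeR adjusted p = 0.0336), named after its value was seen. The 200 tested genes nearest the centromeric ends of the 5 arms, 40 per arm without the 28, were also read. Of these 200, 36 rose and 21 fell, with a median log2 fold change of 0.09. Over all tested genes 11.8% rose and 16.1% fell, with a median of 0.02. No test set the 28 against these neighbours.

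The 2 control libraries were not alike in these genes. Control 2 stood above control 1 in 22 of the 26 tested members and in all 13 that were called higher, whereas it did so in 4387 of all 8798 tested genes. The median distance between the controls was 0.28 on the log2 scale for the members, against 0.26 for all tested genes, and that between the knockdown libraries was 0.09 against 0.12. Relative to each gene's mean over the 4 libraries, the median member was at -0.37 in control 1, -0.11 in control 2, 0.26 in knockdown 1 and 0.25 in knockdown 2, while the median of all tested genes stayed within 0.02 of 0. Summed over the 28 genes, the level was 1608 and 1907 CPM in the controls and 2379 and 2446 CPM in the knockdown libraries. Each sum of the knockdown group was above each sum of the controls. The size of the shift thus depended on the control: the median log2 fold change was 0.39 without control 1, where the same 13 genes were called higher, and 0.67 without control 2. Eggshell and muscle markers also differed between the controls, as given above, and their part in this gap was not tested.

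**Figure D3:**
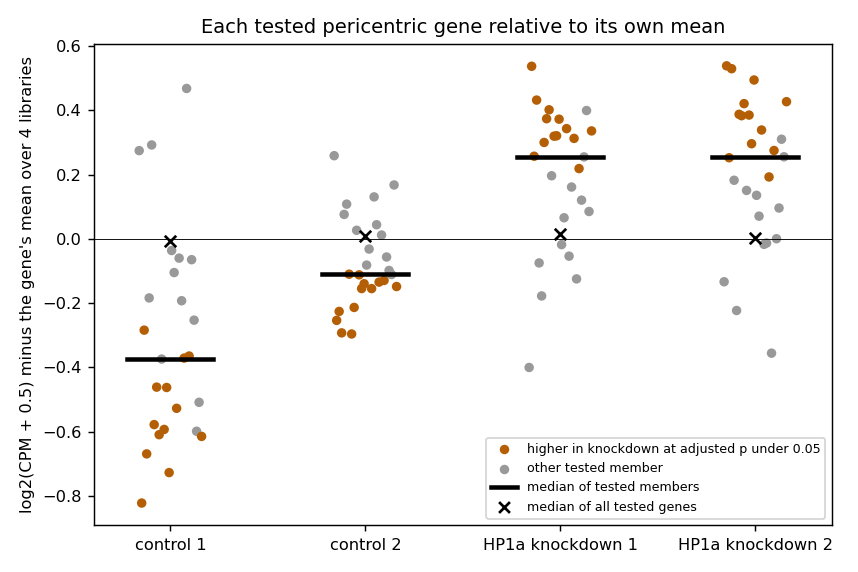
Level of each of the 26 tested pericentric genes in each library, as log2(CPM + 0.5) minus the gene's own mean over the 4 libraries; orange points are the 13 genes called higher, black bars the median of the members and crosses the median of all tested genes. The member medians are -0.37 and -0.11 for control 1 and control 2 and 0.26 and 0.25 for the knockdown libraries, while the crosses stay near 0.

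The median of the members exceeded that of all tested genes by 0.48 as scaled here. Another scale adds about the same constant to every gene, so it leaves this difference in place by construction. It was 0.37 without control 1, 0.59 without control 2, 0.49 without knockdown 1 and 0.47 without knockdown 2. The groups did not overlap for 22 of the 26 tested members (19 higher and 3 lower), beside 77.0% of all tested genes (39.3% higher and 37.7% lower). With DESeq2 the same 13 genes were higher and 1 gene was lower. Over all 8866 genes tested by DESeq2, 37.4% were called, 1688 higher and 1630 lower.

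**Figure D4:**
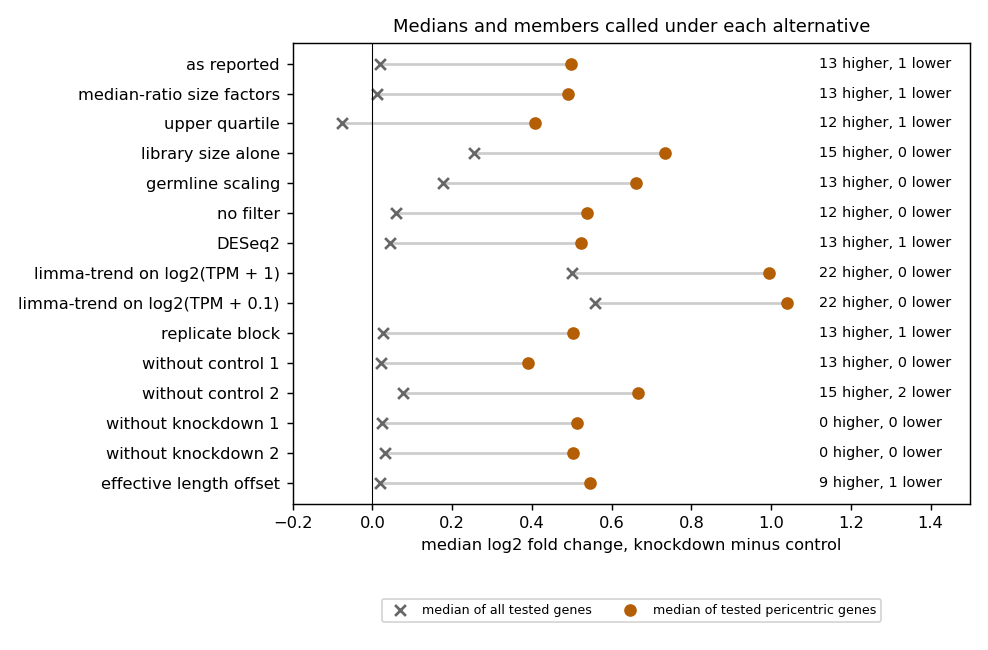
Median log2 fold change of the tested pericentric genes (orange) and of all tested genes (crosses) as reported and under each of 14 alternatives, with the number of members called higher and lower at the right. The number of members called higher runs from 0 to 22; the gap between both medians, which a change of scale leaves in place by construction, lies between 0.37 and 0.59.

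The deposited mean transcript length, which Salmon averages over the transcripts of a gene by their abundance, differed between the groups for many members. A length that moved by under 1% across libraries was counted as fixed. This held for 6 of the 28 genes and for 47.5% of all tested genes. In 9 of the 28 the length was shorter in both knockdown libraries than in both controls, and in 4 it was longer, against 19.9% and 9.57% of all tested genes. A fixed length cannot differ, and fixed lengths were rarer among the members. With those set aside, the members split into 9 shorter, 4 longer and 9 overlapping, beside 1754, 842 and 2020 of all tested genes. These splits are much alike. The largest shortening was in CG40160, from 694 and 564 nt in the controls to 409 and 421 nt in the knockdown libraries. CG12567 went from 696 and 641 nt to 509 and 541 nt, and cta from 1261 and 1268 nt to 1119 and 1124 nt. Nipped-A lengthened, from 10001 and 10324 nt to 11421 and 11515 nt.

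By construction such an average moves when the shares of a gene's annotated transcripts move, and the tables do not say which transcripts did. For 3 members the mean length was under 300 nt, as it was for 3.01% of all tested genes: rl with 261 to 305 nt, Dbp80 with 265 to 272 nt and CG40045 with 189 to 193 nt. Such lengths are short for transcripts that encode a MAP kinase or an RNA helicase, and they raise the TPM of these genes relative to their counts. When the effective length of each gene in each library entered the edgeR fit, an alternative chosen after seeing the data, 9 members were higher and 1 lower. Over all 8798 tested genes 25.4% then passed, 913 higher and 1322 lower. Nipped-A (0.32, adjusted p = 0.0782), vtd (0.64, 0.0575), p120ctn (0.67, 0.0544) and uex (0.68, 0.0550) then did not pass.

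**Figure D5:**
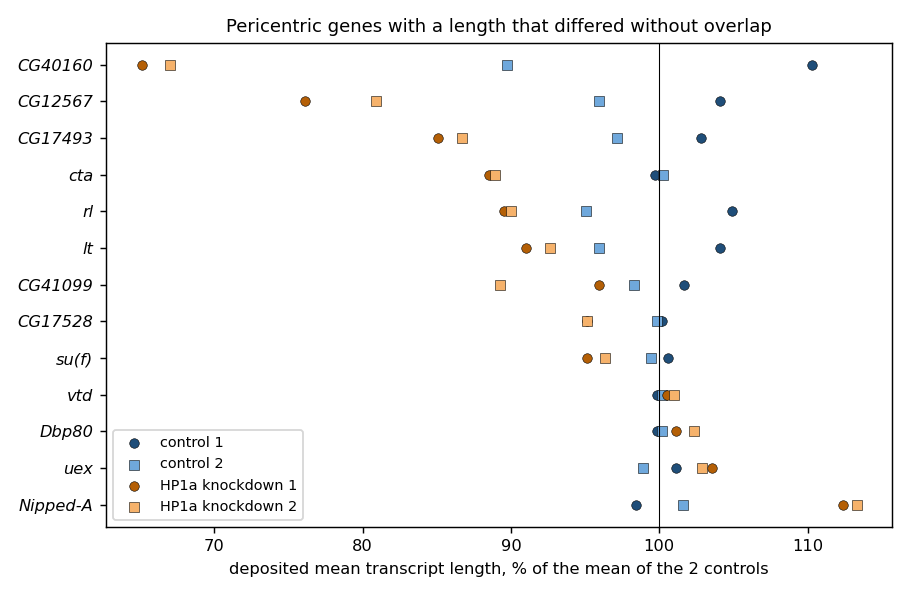
Deposited mean transcript length in each library, as a percentage of the mean of the 2 controls, for the 13 pericentric genes whose groups of libraries did not overlap. In 9 genes both knockdown libraries lie below both controls, furthest for CG40160, and in 4 genes they lie above, furthest for Nipped-A.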

How the data were processed

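Per the file headers, the authors deposited Salmon gene tables with expected counts (estimated reads per gene, not normalized), TPM and transcript lengths; Salmon, HISAT2, DESeq2 and HTSeq and the builds dm3 and BDGP5 are named in the submitters' processing notes, with neither versions nor roles. Reads were single-end, 50 nt. Symbols and gene order came from reference tables of Release 6, whose coordinates were not used; 13484 of 13776 IDs had a symbol. Expected counts were rounded, genes kept by filterByExpr (8798 tested), libraries scaled by TMM (factors 0.92, 0.92, 1.11 and 1.06) and groups compared by the quasi-likelihood F test of edgeR 4.0.16 in R 4.3.3, with no block. P-values were adjusted by Benjamini-Hochberg over all tested genes, at a threshold of 0.05. Each SE was taken from the test itself, as the size of the log2 fold change over the root of its F value. With 2 residual degrees of freedom, p-values measure only the spread between these samples, since the labels do not say that libraries come from separate crosses. All 28 members are named by rule; of the other pericentric genes, up to 4 with the smallest adjusted p. The members and lists were chosen with earlier results of these data known. The procedure was tested on simulated counts without an effect of replicate number. These varied less between replicates than the data, whose common biological coefficient of variation was 0.245. Alternatives used DESeq2 1.42.0, limma 3.58.1 on log2 TPM with pseudocounts of 1 and 0.1, other scales, no count filter, a block and the omission of each library. The DamID samples (2 Dam-HP1, 2 Dam only) entered only through the domain list.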

Additional observations from a re-analysis of the deposited data

How the results depend on the processing

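Over all genes 2455 were called; the count was 5070 and 5046 with limma-trend on log2(TPM + 1) and log2(TPM + 0.1), and 220 to 4543 with a library left out. Of the 26 tested members, 14 were called (13 higher, 1 lower). With limma-trend on TPM 22 were called, all 22 higher and 0 lower, beside medians of 0.50 and 0.56 for all genes. With a library left out 0 to 17 were called, 0 to 15 higher and 0 to 2 lower. The 1 lower call became 0 with library size alone, germline scaling, no filter and TPM. The median of the members, 0.50, was 0.73 with library size alone, 0.66 with germline scaling, 1.00 and 1.04 on TPM and 0.39 to 0.67 with a library left out. The direction of the germline scale depends on its list, of whose 18 genes 9 were above 0 and 9 below as reported. The sign changed for CG40045 (0.16 with library size alone, 0.087 with germline scaling, 0.46 and 0.46 on TPM, and -0.16 to 0.068 with a library left out, positive without control 2), CG40439 (0.026 and 0.027 on TPM), su(f) (0.14 and 0.14 on TPM) and Set1 (-0.014 to 0.29 with a library left out, negative without control 1 and without knockdown 2); none of these was called as reported. The cause of these changes was not tested. With the replicate block, 3713 genes were called over all and the same 14 members (13 higher, 1 lower, median 0.50). Libraries of the same number deviated together (r = 0.54 across 8798 genes, which are not independent). The labels do not say that a number marks a shared cross or day, so what else these libraries share is unknown. Depth limits spok and Snap25, which were not tested.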

Other observations

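Salmon divides reads that match several genes in proportion, which leaves fractions in the expected counts. For 21 of the 28 pericentric genes the deposited values were whole in all 4 libraries (within 0.05 reads), beside 69.3% of all tested genes. Fractions stood in the values of CG17493, CG40160, CG40191, Set1, cta, lt and rl, so that reads of these 7 may be shared with other genes or annotated overlaps. Of the 13 genes called higher, CG40191, cta and rl are among them.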
